A study of Mus musculus with 12 samples.

Results

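Crabp1 and 7 other genes that make, carry or sense retinoic acid were followed in mouse muscle stem cells, from wild-type mice and from mice lacking Sestrin1 and Sestrin2, before and after muscle injury. The 8 genes were Aldh1a1, Aldh1a2, Aldh1a3, Crabp1, Crabp2, Rara, Rarb and Rarg, out of 30154 genes in the deposited tables. They were picked by name, and Crabp1 was picked because its counts fell after injury in wild type and rose in the knockout, so its values below are a description and carry no test. The cells were isolated by flow sorting from 3 hind limb muscles (quadriceps, gastrocnemius and tibialis anterior) of C57BL/6J mice aged 2 to 3 months, and their RNA was sequenced in bulk. There were 6 groups of 2 libraries, 12 in all. Each genotype, wild type and Sestrin1,2 knockout, was sampled before injury (called day 0 here), at day 7 and at day 21. The labels name neither the kind of injury, the cells in which the genes were deleted, the sorting markers, nor the number of mice behind a library, so p-values measure the spread between these libraries, which may be technical. Sestrins are stress-inducible proteins that restrain growth signalling through mTORC1, and the comparisons ask how their loss alters muscle stem cells at rest and during repair.

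Retinoic acid is made from vitamin A in the cell. Retinol is oxidised to retinaldehyde by retinol dehydrogenases, and the Aldh1a enzymes oxidise retinaldehyde to retinoic acid irreversibly. Crabp1 binds retinoic acid in the cytoplasm and is known to limit its availability and to pass it to degrading enzymes, whereas Crabp2 delivers it to the nuclear receptors Rara, Rarb and Rarg, which act on DNA as partners of the Rxr receptors. In skeletal muscle, retinoic acid signalling is known to bear on the quiescence and differentiation of muscle stem cells.

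Each library held between 28396780 and 38950514 estimated counts. Levels are given in TPM (a depth-scaled unit that corrects for transcript length and so allows levels of different genes to be compared), and differences as log2 fold changes from edgeR on the estimated counts. A gene was called when its Benjamini-Hochberg adjusted p over all genes tested was under 0.05. Sesn2, a targeted gene, served as the check of the labels. At day 0 it stood at 27.6 and 30.7 TPM in wild type against 2.10 and 2.65 in the knockout, and at day 7 at 19.1 and 20.5 against 0.984 and 0.791. At day 21 it stood at 3.37 and 34.1 TPM in the libraries labelled wild type and at 3.87 and 45.7 in those labelled knockout. Sesn2 thus went against the label of replicate 1 of wild type and of replicate 2 of the knockout at day 21. For this reason the day 0 and day 7 comparisons were fitted on their own 8 libraries, and day 21 is given per library and by label. Sesn1 was lower in the knockout by less, at 20.9 and 21.1 TPM against 31.4 and 30.6 at day 0 and at 13.4 and 10.5 against 45.3 and 37.1 at day 7. At day 21 Sesn1 went against the same labels, at 18.5 and 39.9 TPM in replicates 1 and 2 of wild type and at 19.3 and 34.9 in those of the knockout. Whether these labels were exchanged was not tested. By label, each day 21 group thus holds 1 library with low and 1 with high Sesn2 and Sesn1. Of the muscle stem cell markers, all 9 were detected at 1 TPM or more in every library, with Pax7, the transcription factor that defines these cells, at 3.14 to 19.2 TPM. Markers of other cells of muscle tissue were also present, with summed levels of 4966 to 9676 TPM for 7 fibro-adipogenic genes and 248 to 2241 TPM for 5 Schwann cell genes.

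The promoters of the receptor gene Rarb and of Cyp26a1, the gene of the main retinoic acid degrading enzyme, are the textbook cases of promoters that answer to retinoic acid, so their sequences are shown with that of Crabp1. A search was made for direct repeats of 6-base cores (AGGTCA or AGTTCA or GGGTCA or GGTTCA, the first and the second core of a repeat each being any of these) on either strand, with 1, 2 or 5 bases between them. It covered the window from 250 bases before to 50 bases after each start in RefSeq (GRCm38.p6). Of 32851 windows of that length over all genes, 0.588% held such a repeat, and 0.0974% held one with the 5-base spacing. Of the 8 genes, 6 had a window, and 1 of the 6, Rarb, held a repeat. Each line gives 120 bases, 5′ to 3′ on the gene's strand, with the repeat in capitals. The Rarb stretch is chr14:16575477-16575596 on the minus strand, the Cyp26a1 stretch is chr19:37697688-37697807 on the plus strand, and the Crabp1 stretch is chr9:54764628-54764747 on the plus strand.
Rarb: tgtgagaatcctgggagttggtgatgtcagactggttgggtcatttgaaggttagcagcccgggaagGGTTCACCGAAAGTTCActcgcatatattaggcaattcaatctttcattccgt
Cyp26a1: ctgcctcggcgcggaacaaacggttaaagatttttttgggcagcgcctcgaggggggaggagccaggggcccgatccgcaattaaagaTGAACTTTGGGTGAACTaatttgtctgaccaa
Crabp1: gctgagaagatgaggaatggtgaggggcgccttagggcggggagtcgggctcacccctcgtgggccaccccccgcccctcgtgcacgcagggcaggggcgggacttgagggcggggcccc
The Rarb repeat ran from base -53 to base -37, where base 0 is the start. The Cyp26a1 repeat ran from base -32 to base -16 and reads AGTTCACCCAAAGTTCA on the opposite strand. Both have the 5-base spacing. Among 35 genes of a wider retinoid list that had a window, 2 held a repeat, Cyp26a1 and Bco1. No repeat of these letters lies in the Crabp1 window. These are letter matches, not measured binding.

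Crabp1 (chromosome 9, 54764748 to 54773110 on GRCm38, plus strand) was the gene of the set that varied most. In wild type it stood at 115 and 126 TPM at day 0 and at 9.50 and 9.32 TPM at day 7. In the knockout it stood at 12.9 and 11.2 TPM at day 0 and at 37.6 and 44.2 TPM at day 7. The groups did not overlap in either comparison, and the order of the genotypes was opposite on the 2 days. As fitted values, Crabp1 was 10.5-fold lower in the knockout at day 0 and 4.48-fold higher at day 7. Between the days it was 15.4-fold lower at day 7 in wild type and 3.03-fold higher at day 7 in the knockout. At day 21 the libraries labelled wild type stood at 31.9 and 21.6 TPM and those labelled knockout at 31.0 and 24.3 TPM, so all 4 lay between the knockout's day 0 and day 7 levels and overlapped by label. The order of the group means was wild type day 0 (120 ± 7.72 TPM, SD, n = 2), knockout day 7 (40.9 ± 4.66), both day 21 groups (27.7 ± 4.79 and 26.8 ± 7.35), knockout day 0 (12.1 ± 1.24) and wild type day 7 (9.41 ± 0.125). Only the day 21 groups, as neighbours in that order, had overlapping libraries. Behind the lowest group lay 148 and 132 estimated counts per library, and behind the highest 1584 and 2074. In bulk RNA, a lower level in every cell and fewer cells that express the gene cannot be told apart.

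**Figure D1:**
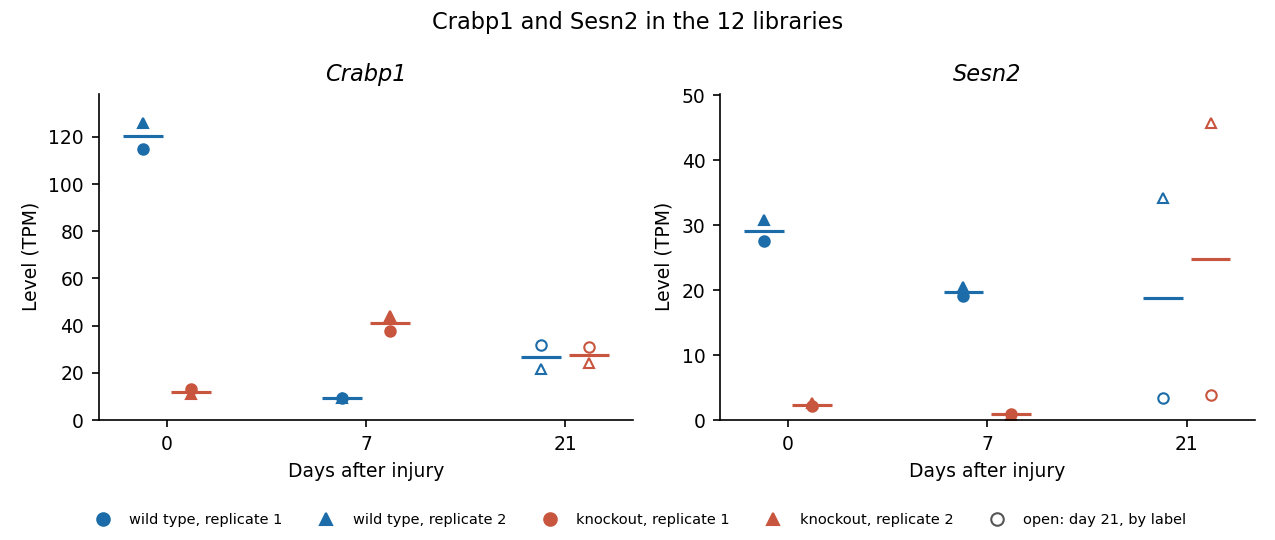
Crabp1 and Sesn2 levels in TPM (vertical axes, from 0) by days after injury. Points are libraries, with circles for replicate 1 and triangles for replicate 2, and bars are means of 2. Crabp1 is highest in wild type at day 0 and higher in the knockout than in wild type at day 7, and at day 21 the Sesn2 levels of 2 libraries go against their labels.

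Markers of skin cells had the same order of genotypes as Crabp1 at day 0. The keratinocyte and sebocyte sums also moved between days 0 and 7 in the direction of Crabp1 in each genotype. Crabp1 is known to be made in skin, in the mesenchyme around hair follicles. The summed level of 6 keratinocyte genes was 168 to 178 TPM in wild type at day 0 and 2.83 to 2.93 TPM in the knockout, where Krt14 and Krt5, keratins of the basal epidermis, were listed at 0 in both libraries. The summed level of 5 sebocyte genes was 8.34 to 9.40 against 1.55 to 1.94 TPM, and that of 5 dermal papilla genes 13.2 to 13.8 against 3.03 to 3.94 TPM. Corin, a dermal papilla protease, stood at 3.69 and 3.86 TPM in wild type and at 0.286 and 0.153 TPM in the knockout. At day 7 the keratinocyte sum was lower in the knockout, at 7.32 to 7.84 TPM against 10.2 to 22.6 TPM, while Crabp1 was higher there. From day 0 to day 7 both this sum and Crabp1 fell in wild type and rose in the knockout. The sebocyte sum did so too, to 3.00 to 3.43 TPM in wild type and 2.60 to 3.36 TPM in the knockout at day 7, which overlapped. The dermal papilla sums of the genotypes overlapped at day 7, at 3.17 to 3.64 TPM in the knockout and 2.58 to 3.42 TPM in wild type. Within that list Corin was higher in the knockout at day 7, at 0.584 and 1.27 TPM against 0.196 and 0.0134 TPM (4 and 1 estimated counts in wild type), while the other 4 genes of the list summed to 2.58 and 2.37 TPM in the knockout and 3.23 and 2.56 TPM in wild type, which overlapped. The muscle stem cell sum at day 0 was 753 to 762 TPM in wild type and 479 to 510 TPM in the knockout, and at day 7 it was 726 to 768 and 647 to 709 TPM. At day 21 the keratinocyte sum was 31.3 and 109 TPM in wild type by label and 69.4 and 65.1 TPM in the knockout by label. Crabp1 stood there at 31.9 and 21.6 and at 31.0 and 24.3 TPM. The sebocyte sum was 1.06 and 3.58 against 4.24 and 4.34 TPM, and the dermal papilla sum 2.95 and 5.96 against 4.44 and 7.44 TPM. By label, these sums and Crabp1 were lower than at day 0 in wild type and higher than at day 0 in the knockout. The part of these marker differences in the Crabp1 values was not tested.

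**Figure D2:**
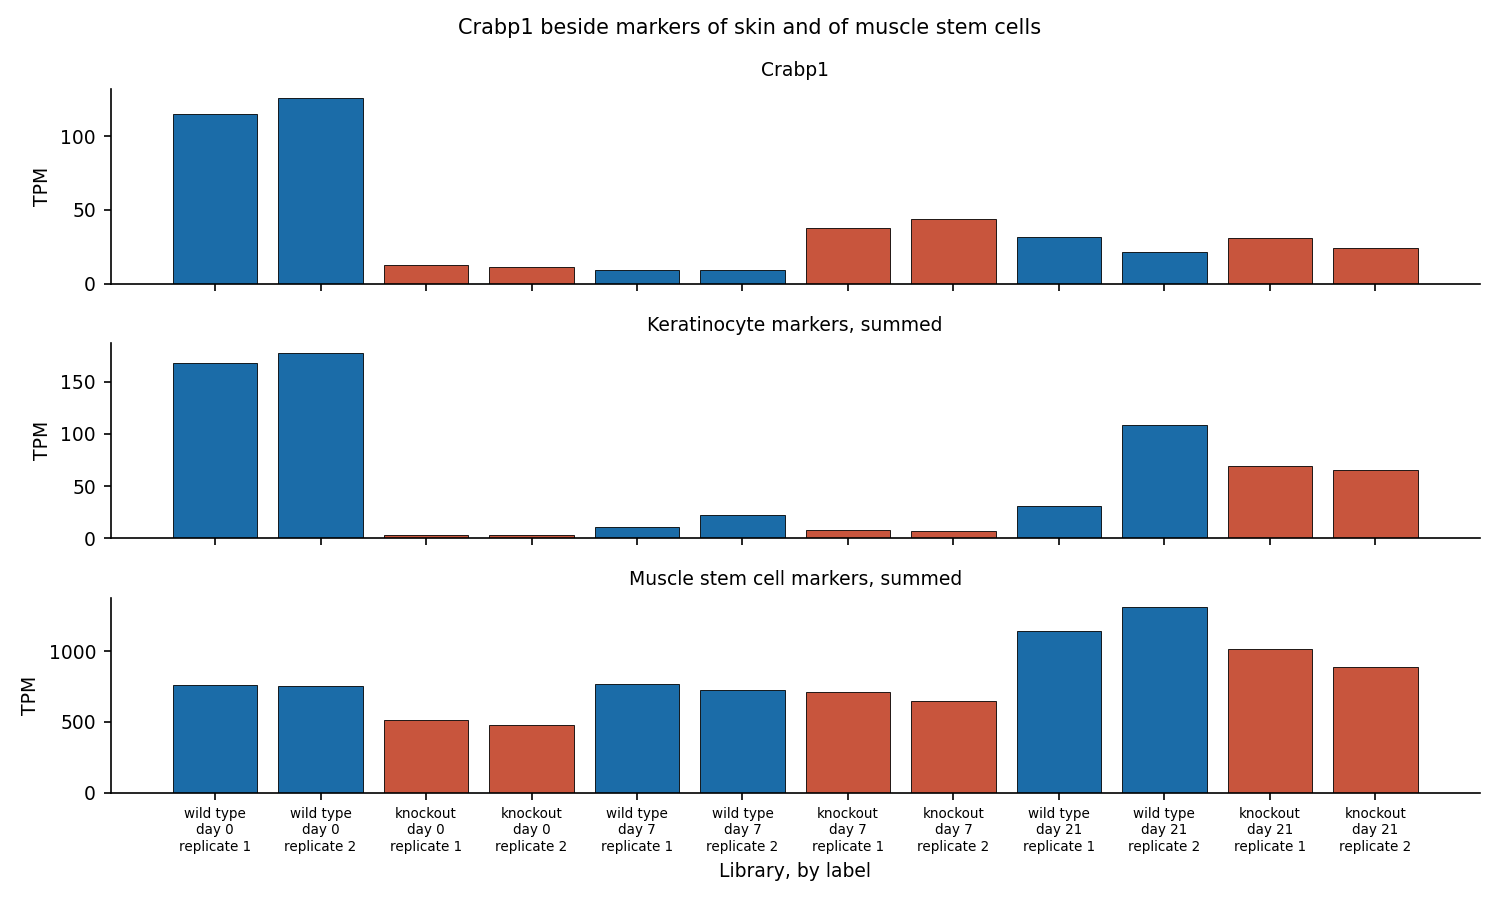
Crabp1, the summed level of 6 keratinocyte markers and the summed level of 9 muscle stem cell markers, in TPM (vertical axes, from 0), in each of the 12 libraries by label. At day 0 Crabp1 and the keratinocyte sum are both high in wild type and low in the knockout, and at day 7 the keratinocyte sum is low in all 4 libraries while Crabp1 is higher in the knockout.

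Over the 12 libraries, the 5 named genes whose log2 CPM correlated most with that of Crabp1, of 14664 ranked, were Tm6sf2 (Pearson r = 0.952), Slc39a8, a zinc and manganese transporter (0.940), Rpl39l, a ribosomal protein gene (0.934), Ifitm10 (0.934) and Ebp, an enzyme of cholesterol synthesis (0.917). These are descriptions over 12 libraries that share the 6 groups. Both Tm6sf2, from 0 to 1.78 CPM, and Rpl39l, from 0.181 to 0.875 CPM, were near the limit of detection. Slc39a8 stood at 7.50 and 7.99 CPM in wild type against 4.13 and 3.79 in the knockout at day 0, and at 2.92 and 3.08 against 5.01 and 4.61 at day 7. It was chosen by its correlation with Crabp1 in these same libraries, so sharing the order of genotypes is no separate observation. Corin, named here after its values were seen, ranked 8 with r = 0.909. Of the other 7 retinoid genes, Rarg came closest, with r = 0.687, and Aldh1a2 was farthest, with r = -0.279.

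Crabp2, the partner that hands retinoic acid to its receptors, fell after injury in both genotypes and fell to a lower level in wild type. It stood at 31.3 and 35.1 TPM in wild type and 38.7 and 36.6 TPM in the knockout at day 0, with no call between them (edgeR adjusted p = 0.569). At day 7 it stood at 11.6 and 11.4 TPM in wild type and at 17.8 and 15.8 TPM in the knockout, and the groups did not overlap. The fall by day 7 was called in wild type, by 1.80 on the log2 scale (SE 0.137, adjusted p = 7.77e-06 by edgeR), and in the knockout, by 1.31 (SE 0.134, adjusted p = 4.35e-05). At day 7 Crabp2 was higher in the knockout by a log2 fold change of 0.60 (SE 0.137, edgeR adjusted p = 0.0327). This call was lost in the fit of all 12 libraries (adjusted p = 0.132), on the authors' batch-corrected values (limma, 0.107), and on leaving out any of 7 of the 8 libraries (edgeR adjusted p between 0.0616 and 0.131). It held without replicate 2 of the knockout at day 7 (0.0259). The interaction, the change in the knockout minus that in wild type, was 0.49 (SE 0.188) and was not called (adjusted p = 0.0891).

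The Aldh1a enzymes, which make retinoic acid, changed with injury, and no call separated the genotypes on either day. Aldh1a1 was the most abundant of the 3 by length-corrected level. It stood at 50.0 and 53.9 TPM in wild type and 56.8 and 58.2 TPM in the knockout at day 0, and at 34.2 and 23.9 against 27.0 and 26.7 TPM at day 7. It fell by 1.11 in wild type on the log2 scale (SE 0.147, adjusted p = 0.000281 by edgeR) and by 1.25 in the knockout (SE 0.148, adjusted p = 0.000130). The interaction for Aldh1a1 was -0.14 (SE 0.207, edgeR adjusted p = 0.664), and its direction turned on leaving out 1 library, at 0.16 without replicate 1 and -0.37 without replicate 2 of wild type at day 7. Aldh1a7, a near copy with 89.1% identity to Aldh1a1 over 2072 aligned bases, stood at 0.250 to 2.73 TPM in the 12 libraries. It fell by 3.45 on the log2 scale in wild type (edgeR adjusted p = 0.000228) and by 2.54 in the knockout (adjusted p = 0.00115), and reads of such near copies can be shared out between them.

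Aldh1a2, the main source of retinoic acid in the embryo, was the 1 gene of the 7 called higher after injury, and it did so in both genotypes. It stood at 1.15 and 0.730 TPM in wild type and 0.923 and 0.761 TPM in the knockout at day 0, and at 3.14 and 3.00 against 2.57 and 2.77 TPM at day 7. All 4 day 7 libraries lay above all 4 of day 0. The rise had a log2 fold change of 1.44 in wild type (SE 0.302, edgeR adjusted p = 0.00339) and 1.51 in the knockout (SE 0.307, adjusted p = 0.00276), from 34 to 62 estimated counts per library at day 0. Aldh1a2 was thus the least abundant of the 3 enzymes before injury, and at day 7 its libraries overlapped those of Aldh1a3. Aldh1a3 stood at 6.44 and 7.00 TPM in wild type and 6.79 and 5.11 TPM in the knockout at day 0, and at 2.11 and 4.38 against 3.54 and 2.94 TPM at day 7. Its fall was called in wild type, by 1.53 on the log2 scale (SE 0.360, adjusted p = 0.00736 by edgeR; 1.04 without replicate 1 and 2.27 without replicate 2 of wild type at day 7, both called), and not in the knockout, where the log2 fold change was -0.88 (SE 0.358, adjusted p = 0.0693, and 0.0286 with DESeq2). The interaction for Aldh1a3 was not called (0.65, SE 0.503, edgeR adjusted p = 0.387). Without replicate 1 of wild type at day 7 it was 0.18 (adjusted p = 0.747), and without replicate 2 it was 1.41 and was called (adjusted p = 0.0310). Without either of these the fall in the knockout was called as well (edgeR adjusted p = 0.00915 and 0.00932).

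The receptors Rarb and Rarg fell after injury in wild type and fell less or were not called in the knockout, whereas Rara did not follow them. Rarb, the receptor gene whose own promoter is known to be switched on by retinoic acid (its sequence stands above), stood at 7.35 and 4.38 TPM in wild type and at 6.80 and 5.49 TPM in the knockout at day 0, which overlapped. At day 7 it stood at 1.08 and 1.29 TPM in wild type and at 3.41 and 3.36 TPM in the knockout. It fell by 2.57 in wild type on the log2 scale (SE 0.258, adjusted p = 4.35e-05 by edgeR) and by 1.02 in the knockout (SE 0.241, adjusted p = 0.00624). At day 7 it was 2.95-fold higher in the knockout (log2 1.56, SE 0.255, edgeR adjusted p = 0.00794). The interaction was also called (1.56, SE 0.346, edgeR adjusted p = 0.0129), but not by limma on log2(TPM + 1) (adjusted p = 0.0753) or on the batch-corrected values (0.0563), nor without replicate 2 of the knockout at day 0 (edgeR, 0.0597). Without replicate 1 of wild type at day 7 neither the interaction (adjusted p = 0.0535) nor the day 7 difference (0.0827) was called by edgeR. On log2(TPM + 1) without a filter the day 7 difference (limma adjusted p = 0.0904) and the fall in the knockout (0.0515) were not called either. Of the exonic bases of Rarb, 34.1% also belong to Top2b, a topoisomerase gene on the opposite strand, and the cDNA preparation named in the labels does not mark strand, so reads in that part cannot be told apart. Top2b was higher after injury in wild type and was not called in the knockout (edgeR log2 fold changes 0.70, adjusted p = 0.000127, and 0.084, adjusted p = 0.424). The Top2b interaction was called and negative, where that of Rarb was positive (edgeR -0.61, SE 0.117, adjusted p = 0.00707). How reads of the shared part were divided between these genes was not tested. The levels of Top2b are given next. It went from 28.3 and 27.4 TPM to 60.4 and 58.2 TPM in wild type and from 32.4 and 43.1 TPM to 45.5 and 41.1 TPM in the knockout.

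Rarg, the receptor linked to skeletal and epithelial development, stood at 24.7 and 26.6 TPM in wild type and at 18.7 and 19.8 TPM in the knockout at day 0. At day 7 the order was reversed, with 15.5 and 16.2 TPM in wild type and 21.3 and 18.5 TPM in the knockout. The genotypes overlapped on neither day. Rarg was lower in the knockout at day 0, with a log2 fold change of -0.52 (SE 0.106, edgeR adjusted p = 0.00517), a call that the fit of all 12 libraries did not give (0.0529). At day 7 the log2 fold change was 0.36 and was not called (SE 0.107, edgeR adjusted p = 0.0853). Without replicate 2 of the knockout at day 7 this log2 fold change was 0.51, and without replicate 1 it was 0.22. In the fit of all 12 libraries it was 0.36 and was not called (edgeR adjusted p = 0.390). Rarg fell by 1.00 in wild type on the log2 scale (SE 0.107, adjusted p = 6.52e-05 by edgeR), and its log2 fold change in the knockout was -0.12 (SE 0.107, adjusted p = 0.389). The interaction was called (0.88, SE 0.151, edgeR adjusted p = 0.00442). At day 0 the keratinocyte sum was lower in the knockout as well, and its part in the Rarg values was not tested.

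Rara, the receptor expressed in most tissues, stood at 18.3 and 19.2 TPM in wild type and at 24.6 and 32.0 TPM in the knockout at day 0, and at 25.2 and 18.8 against 27.7 and 20.3 TPM at day 7. It was higher in the knockout at day 0 on estimated counts, with a log2 fold change of 0.51 (SE 0.125, edgeR adjusted p = 0.0123). That call was lost on log2(TPM + 1) (limma adjusted p = 0.0588), on the batch-corrected values (0.141), and without replicate 2 of the knockout (edgeR, 0.0884) or replicate 1 of wild type at day 0 (0.0933). Rara fell by 0.62 in the knockout on the log2 scale (SE 0.125, adjusted p = 0.00272 by edgeR), but by 0.23 on log2(TPM + 1), which was not called (limma adjusted p = 0.341). The transcript length implied by the ratio of counts to TPM varied for Rara between libraries, from 0.845 to 1.17 of its mean over the 12. In wild type the Rara log2 fold change was -0.25 (SE 0.125, edgeR adjusted p = 0.118). Over the alternatives it ran from -0.36 to 0.22, so its direction was not settled.

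**Figure D3:**
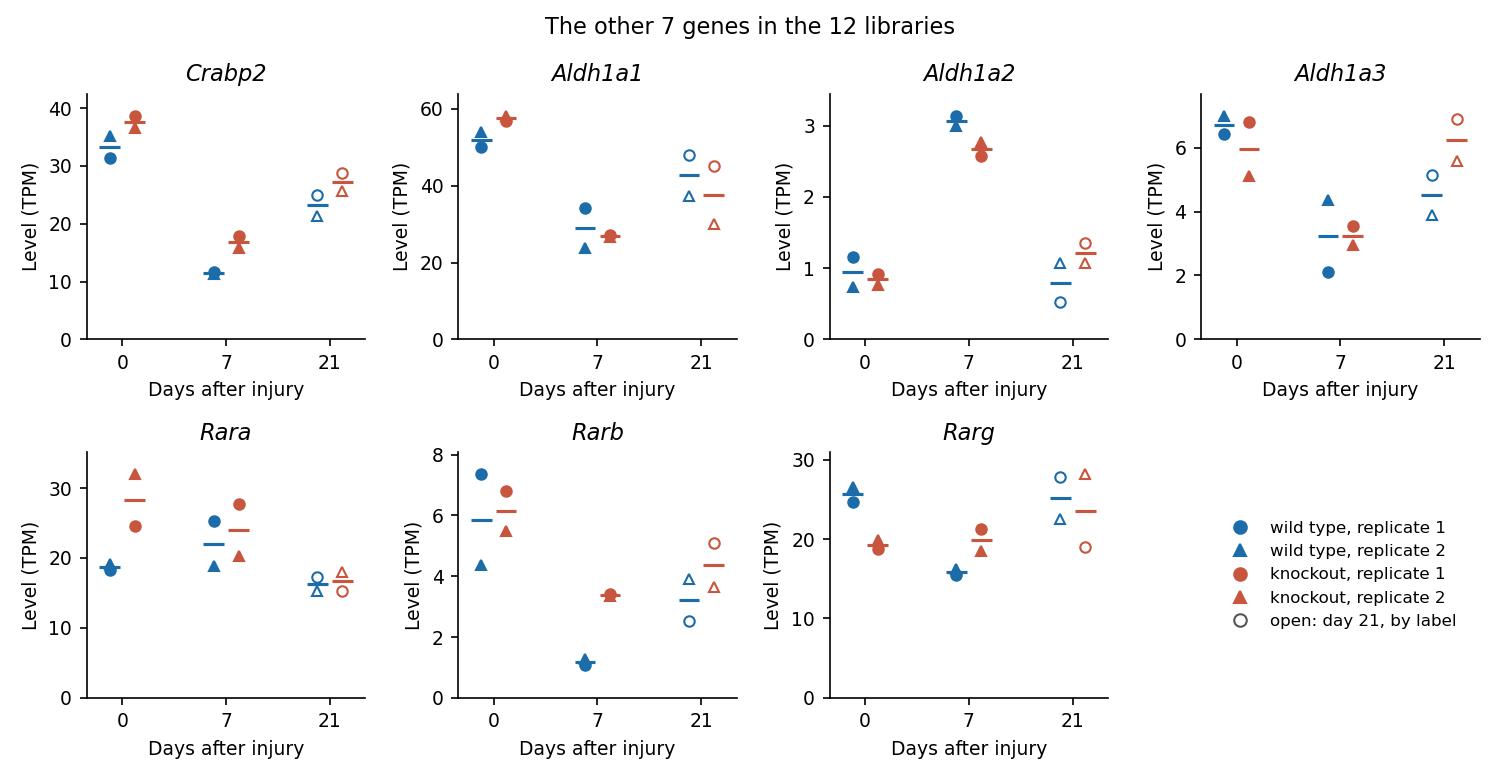
Levels of the other 7 genes in TPM (vertical axes, from 0) by days after injury. Points are libraries and bars are means of 2. Crabp2 and Rarb are higher in the knockout at day 7, the order of the genotypes in Rarg turns between day 0 and day 7, and Aldh1a2 is higher at day 7 in both genotypes.

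Counted over the 7 genes other than Crabp1, there were more calls between days than between genotypes, as there were over all genes. From day 0 to day 7 in wild type, 1 gene was called higher and 5 lower, with a median log2 fold change of -1.11, where 27.9% of all 15672 genes tested were called higher and 26.1% lower, and the median over all genes was 0.013. In the knockout 1 was called higher and 4 lower, with a median of -0.88, where 27.6% of all genes were called higher and 26.6% lower, and their median was 0.0024. Between genotypes at day 0, 1 was called higher (Rara) and 1 lower (Rarg), where 19.5% of all genes were called higher and 19.4% lower. At day 7, 2 were called higher in the knockout (Crabp2 and Rarb) and none lower, where 4.8% of all genes were called higher and 2.66% lower. The interaction was called for 2 (Rarb and Rarg), both higher, where 12.8% of all genes were called higher and 12% lower. The count at day 0 lies near the background, and so does that of the interaction. Markers of other cells also differed between the days, in both genotypes. From the 4 libraries of day 0 to the 4 of day 7, the summed level of 5 Schwann cell genes went from 1766 to 2241 TPM down to 248 to 359 TPM. The sum of 4 mural genes went from 4928 to 7495 down to 2097 to 3097 TPM, most of it Acta2, a smooth muscle actin, while Rgs5, a pericyte gene, went from 22.9 to 35.1 up to 47.4 to 80.6 TPM. The sum of 6 immune genes went from 2031 to 3513 down to 339 to 502 TPM, nearly all of it the lysozyme gene Lyz2, while the other immune genes were higher at day 7. Csf1r, a macrophage receptor, went from 0.139 to 0.346 up to 1.48 to 7.40 TPM, and Adgre1, a macrophage marker, from 0 to between 1.14 and 5.07 TPM. The sum of 7 genes of muscle differentiation and fibres went from 97.5 to 184 TPM up to 2977 to 4526 TPM. Their part in the changes of the retinoid genes was not tested.

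**Figure D4:**
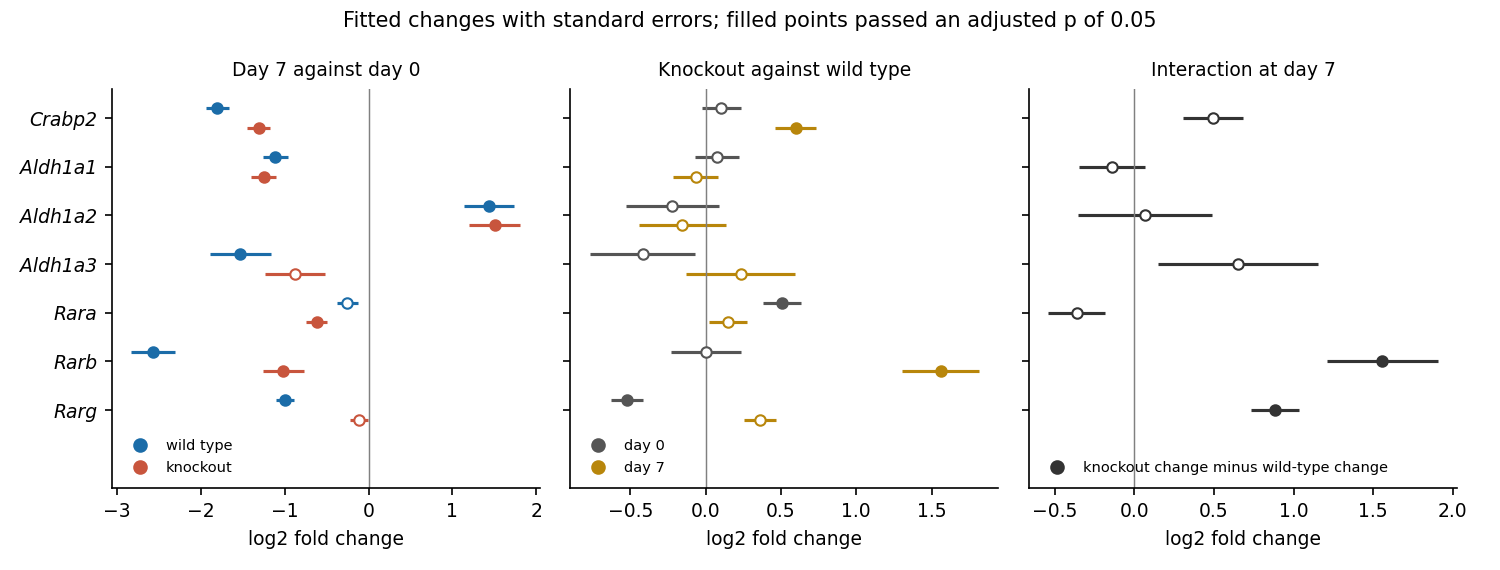
Fitted log2 fold changes (horizontal axes) with standard errors for the 7 genes other than Crabp1, between days in each genotype, between genotypes on each day, and for the interaction at day 7. Filled points passed an edgeR adjusted p of 0.05. Aldh1a2 lies above 0 in both genotypes after injury, and Rarb and Rarg lie above 0 in the interaction.

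A wider list of 46 genes of retinoid uptake, oxidation, degradation and response was set beside them, of which 41 passed the filter on low counts and Bco1, Cyp26b1, Hoxb1, Cdx1 and Stra8 did not. At day 7, 6 of these 41 were called higher in the knockout than in wild type and 1 lower, with a median log2 fold change of 0.072, where 4.8% and 2.66% of all genes were called. From day 0 to day 7, 4 were called higher and 16 lower in wild type (median -0.26), where 27.9% and 26.1% of all genes were, and 8 higher and 16 lower in the knockout (median -0.49), where 27.6% and 26.6% were. At day 0, 7 were called higher in the knockout and 7 lower (median 0.066), where 19.5% and 19.4% of all genes were. The interaction was called higher for 7 and lower for 6 (median 0.19), where 12.8% and 12% of all genes were and the median over all genes was 0.027. The counts at day 0 and of the interaction lie near the background.

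Among the 7 genes of retinol uptake and storage, Stra6, the membrane receptor that takes up retinol, fell most. It stood at 16.2 and 17.1 TPM in wild type and 16.8 and 19.4 TPM in the knockout at day 0, and at 1.34 and 1.68 against 3.23 and 2.44 TPM at day 7. It fell by 3.97 in wild type on the log2 scale (SE 0.151, adjusted p = 1.91e-07 by edgeR) and by 2.63 in the knockout (SE 0.139, adjusted p = 7.75e-07), with a called interaction of 1.34 (SE 0.197, adjusted p = 0.0023). At day 7 Stra6 was higher in the knockout by 1.28 (SE 0.151, edgeR adjusted p = 0.00178). Rbp4, the blood carrier of retinol, was the seventh gene called between genotypes at day 7, higher in the knockout by 1.21 (edgeR adjusted p = 0.0133), and is named after its values were seen. In the fit of all 12 libraries neither Stra6 (edgeR adjusted p = 0.0563) nor Rbp4 (0.0629) was called at day 7. On log2(TPM + 1) the Stra6 difference at day 7 was 0.61 (limma adjusted p = 0.0713) and its interaction 0.50 (0.147). Without replicate 2 of wild type at day 7 the Rbp4 call was lost (edgeR adjusted p = 0.0836).

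Of the 16 genes of retinol oxidation and retinaldehyde turnover, 15 were tested. None was called higher and 8 were called lower after injury in wild type, where 27.9% of all genes were called higher and 26.1% lower. In the knockout 1 was called higher and 5 lower, where 27.6% and 26.6% of all genes were, so that its count of lower genes lies near the background. The difference between these counts was not tested. Dhrs3, which reduces retinaldehyde back to retinol and is itself known to be induced by retinoic acid, stood at 44.1 and 44.8 TPM in wild type and 67.4 and 65.7 TPM in the knockout at day 0, and at 28.5 and 28.0 against 50.3 and 53.1 TPM at day 7. It was higher in the knockout at day 7 by 0.93 (SE 0.0813, edgeR adjusted p = 0.000417) and did not overlap between genotypes on either day. Rdh10, the dehydrogenase of the first step of retinoic acid synthesis, was higher in the knockout at day 7 by 0.59 (SE 0.0862, edgeR adjusted p = 0.00465), at 28.6 and 30.5 against 21.7 and 19.3 TPM, and its interaction was 0.70 (adjusted p = 0.00472), which was lost with limma on log2(TPM + 1) without a filter (0.54, adjusted p = 0.0566). Rdh5, a dehydrogenase best known from the retina, was lower in the knockout at day 0 by a log2 fold change of -0.67 (edgeR adjusted p = 0.000356) and fell by 0.91 in wild type (adjusted p = 1.5e-05), with an interaction of 0.79 (adjusted p = 0.00173). Adh1, an alcohol dehydrogenase that also oxidises retinol, fell in both genotypes, by 1.00 in wild type (SE 0.107, adjusted p = 6.78e-05 by edgeR) and by 1.26 in the knockout (SE 0.109, adjusted p = 1.57e-05). In the fit of all 12 libraries the day 7 differences of Dhrs3 and Rdh10 kept their size and were not called (edgeR adjusted p = 0.0540 and 0.0529).

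Cyp26a1, the cytochrome that degrades retinoic acid and whose promoter is shown above, stood at 11.9 and 15.0 TPM in wild type and 16.4 and 15.2 TPM in the knockout at day 0. At day 7 it stood at 1.30 and 1.07 TPM in wild type and at 3.92 and 7.85 TPM in the knockout, so that both genotypes were lower than at day 0 and the knockout was the higher of the 2. It was higher in the knockout at day 7 by a log2 fold change of 2.35 (SE 0.341, edgeR adjusted p = 0.0055), from 60 and 45 estimated counts in wild type and 176 and 275 in the knockout. Cyp26a1 fell by 3.77 in wild type (SE 0.344, edgeR adjusted p = 3.39e-05) and by 1.58 in the knockout (SE 0.302, adjusted p = 0.00223), and the interaction was 2.19 (SE 0.446, adjusted p = 0.0100). On log2(TPM + 1) without a filter the interaction was 1.38 and was not called (limma adjusted p = 0.0736). Of the other degrading enzymes, Cyp26b1 did not pass the filter on low counts and Cyp26c1 was not called in any comparison of the 8 libraries.

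Among partner receptors and the Fabp5 route, Rxrg, an Rxr receptor typical of muscle, fell after injury by 1.65 in wild type (SE 0.156, edgeR adjusted p = 3.15e-05) and by 1.79 in the knockout (SE 0.156, adjusted p = 1.71e-05). Fabp5, a fatty acid carrier that can take retinoic acid to Ppard, was lower in the knockout at day 0, at 45.6 and 42.1 against 122 and 118 TPM, a log2 fold change of -1.53 (SE 0.102, edgeR adjusted p = 3.65e-05). Fabp5 is also abundant in epidermis, and the keratinocyte sum moved the same way at day 0. At day 7 Fabp5 stood at 104 and 92.0 TPM in the knockout and 100.1 and 115 TPM in wild type, which overlapped, and the interaction was 1.44 (SE 0.142, edgeR adjusted p = 0.000435).

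The receptor coregulators moved differently. Ncoa3, a coactivator, was higher in the knockout at day 0, at 20.8 and 18.9 against 8.04 and 8.31 TPM, by 1.13 (SE 0.128, edgeR adjusted p = 0.000335). Ncoa2, a related coactivator, was higher there by 0.83 (SE 0.123, edgeR adjusted p = 0.00111), and its interaction was -1.11 (SE 0.173, adjusted p = 0.0029). Nrip1, a corepressor bound in the presence of ligand, rose in both genotypes, by 1.08 in wild type (SE 0.098, edgeR adjusted p = 2.3e-05) and by 0.52 in the knockout (SE 0.0977, adjusted p = 0.00169). Ncoa3 and Nrip1 also had called negative interactions. Of the 6 coregulators, 4 had a called negative interaction and 0 a called positive one, where 12% of all genes were called lower and 12.8% higher. A count of 0 of 6 called higher thus lies near the background. The Ncoa2 calls were lost with limma on log2(TPM + 1), at a log2 difference of 0.62 at day 0 (adjusted p = 0.188) and an interaction of -0.47 (adjusted p = 0.518). The interactions of Ncoa3 and Nrip1 were lost on leaving out replicate 1 of wild type at day 7 (edgeR adjusted p = 0.0522 and 0.0749), among other libraries.

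Of 9 other genes known to respond to retinoic acid, 6 were tested. Between genotypes at day 7, 1 of the 6 was called higher, where 4.8% of all genes were. None had a called interaction, where 12.8% of all genes were called higher and 12% lower, so that a count of 0 of 6 lies near the background. Tgm2, a transglutaminase and long-known retinoic acid target, was higher in the knockout on both days, at 286 and 318 against 116 and 117 TPM at day 0 and at 115 and 93.7 against 56.3 and 59.0 TPM at day 7. The log2 fold changes were 1.12 (SE 0.107, edgeR adjusted p = 0.000177) and 0.86 (SE 0.108, adjusted p = 0.00273). Tgm2 fell after injury by 1.35 in wild type (SE 0.108, edgeR adjusted p = 1.38e-05) and by 1.62 in the knockout (SE 0.109, adjusted p = 4.12e-06). The summed level of the 4 mural genes, most of it Acta2, had the same order, at 7468 to 7495 TPM in the knockout and 4928 to 4940 in wild type at day 0 and at 3075 to 3097 against 2097 to 2104 at day 7, and its part in the Tgm2 values was not tested. Rarres2, the gene of chemerin, fell in both genotypes, by 1.70 in wild type (SE 0.174, adjusted p = 4.82e-05 by edgeR), from 62.8 and 76.8 to 22.9 and 29.0 TPM, and by 1.87 in the knockout (SE 0.174, adjusted p = 2.45e-05), from 92.6 and 85.5 to 30.7 and 23.7 TPM.

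**Figure D5:**
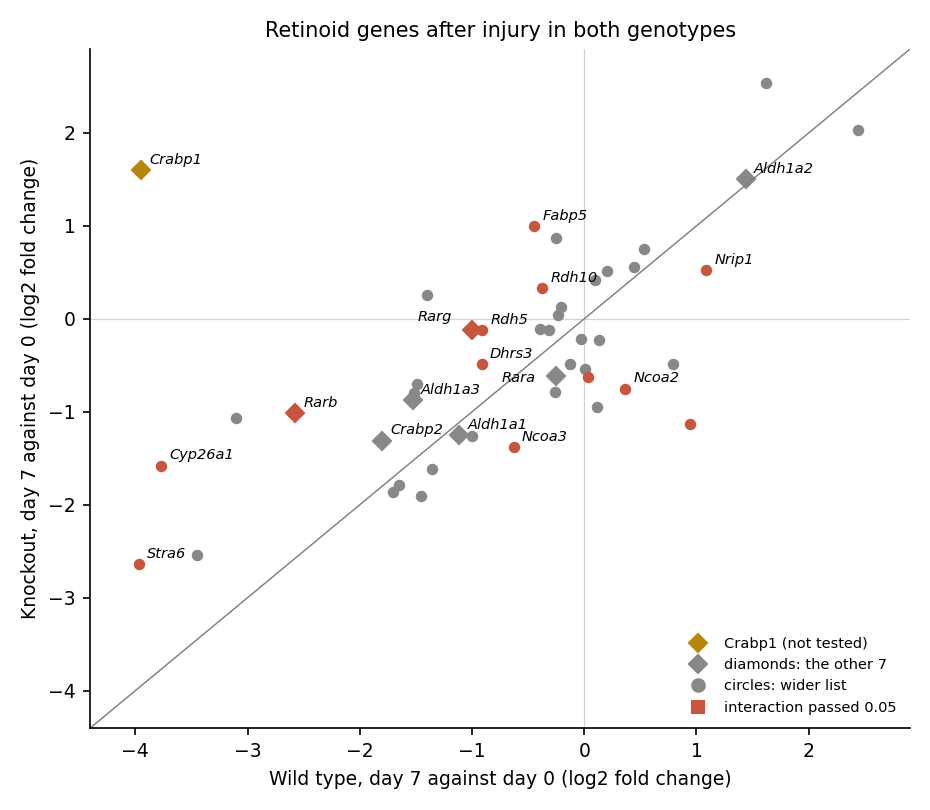
Log2 fold change from day 0 to day 7 in wild type (horizontal axis) and in the knockout (vertical axis) for the 8 genes (diamonds) and tested genes of the wider list (circles; those not reported here are left out). The line marks equal change, and red marks a called interaction. Crabp1, not tested, lies far above the line in the upper left, and Rarb, Rarg, Stra6 and Cyp26a1 lie above it at negative values on both axes.

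At day 21, by label, none of the 7 genes was called between genotypes by edgeR, against 0.0126% of all 15890 genes tested, and none of the 7 had an unadjusted p under 0.05, which 14.2% of all genes had. Of the 53 genes of both lists other than Crabp1, 49 were tested there and none was called by edgeR (4 had an unadjusted p under 0.05), and 2 were called by DESeq2. Each day 21 label group held 1 library with low and 1 with high Sesn2, so a lack of calls cannot show that the genotypes were alike. Changes from day 0 by label may likewise mix genotype with time. Crabp2 stood at 25.0 and 21.4 TPM in the libraries labelled wild type and at 28.8 and 25.7 TPM in those labelled knockout, below day 0 and above day 7. Rarb stood at 2.53 and 3.91 TPM and at 5.09 and 3.63 TPM, which overlapped. Aldh1a2 was back at 0.522 and 1.07 TPM and at 1.36 and 1.07 TPM, below every day 7 library. Against day 0 by label, 2 of the 7 genes were called lower in wild type, Crabp2 (by 0.63 on the log2 scale, edgeR adjusted p = 0.0148) and Rarb (by 0.99, adjusted p = 0.0221), where 15.5% of all genes were called lower. Without replicate 1 of wild type at day 0 the Rarb log2 fold change was -0.57 and was not called (edgeR adjusted p = 0.213). That call was also lost without replicate 1 of wild type at day 21 (0.126) and with limma on log2(TPM + 1) (0.0603), and the Crabp2 call without replicate 2 of wild type at day 0 (edgeR adjusted p = 0.118) or at day 21 (0.0789). In the knockout 2 were called lower, Crabp2 (by 0.56, edgeR adjusted p = 0.0274) and Rara (by 0.90, adjusted p = 0.000918), and Aldh1a1 was close to the threshold (log2 fold change -0.71, adjusted p = 0.0516), where 14.1% of all genes were called lower. The Crabp2 call was lost there without replicate 1 (edgeR adjusted p = 0.126) or 2 (0.0964) of the knockout at day 0, or replicate 2 at day 21 (0.155). Aldh1a1 was called lower there in 10 of 20 alternatives, among them DESeq2 (adjusted p = 0.0151), with the lowest adjusted p by limma on the batch-corrected values (0.00583). The Aldh1a1 log2 fold change was -1.11 without replicate 1 and -0.40 without replicate 2 of the knockout at day 21. In the libraries whose Sesn2 goes against the label, replicate 1 of wild type and replicate 2 of the knockout, Crabp1 stood at 31.9 and 24.3 TPM. The other libraries of that day, replicate 2 of wild type and replicate 1 of the knockout, stood at 21.6 and 31.0 TPM.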

How the data were processed

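Bulk RNA-seq of sorted muscle stem cells was read from 3 deposited tables. The authors deposited estimated counts per gene, not normalised, and TPM for the same genes, which sum to 0.874 to 0.883 of the full scale. The authors also deposited log2 values, regularised and corrected for a batch that neither labels nor table names. Per the submitters' processing notes, kallisto 0.46.1 and the builds mm10 and GRCm38.p6 were used, with no role given. Per the labels' protocols, reads were single-end, and cDNA was made by a template-switching kit that does not mark strand.

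Estimated counts were rounded and tested with edgeR 4.0.16 (R 4.3.3; filterByExpr, TMM, robust quasi-likelihood F test, Benjamini-Hochberg adjustment over all genes tested). Day 0 and day 7 comparisons used their 8 libraries in 4 groups with 4 residual degrees of freedom, and day 21 comparisons used all 12. The code was tested on simulated data. The 8 genes, the wider list, the marker lists and the tests were chosen with earlier results of these data known. Named are the 8 genes, Sesn1 and Sesn2, Top2b for its overlap with Rarb, up to 6 called genes of the wider list per comparison by adjusted p, the 5 genes most correlated with Crabp1, and markers. Some genes that this rule names are not reported here. Correlations used log2 CPM with a prior count of 2. Near copies were sought with BLAST 2.17.0 in GENCODE transcripts, and figures drawn with matplotlib 3.10.9. Replicate numbers were the same in all groups, but deviations of same-numbered libraries did not correlate (r between -0.143 and 0.0700 over 15 pairs), so no block was used. Alternatives were DESeq2 1.42.0, median-of-ratios scaling, no filter, a replicate block, limma 3.58.1 on log2(TPM + 1) or log2(TPM + 0.1) with a minimum of 1 TPM in 2 libraries or none, limma on the authors' batch-corrected values, a fit of all 12 libraries and leaving out each library in turn.

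Over the 12 libraries, the marker lists summed to 479 to 1310 TPM for muscle stem cells, 97.5 to 4526 for muscle differentiation and fibres, 3994 to 12579 for tenocytes, 46.8 to 131 for endothelial cells, 339 to 3513 for immune cells (nearly all Lyz2) and 2097 to 7495 for mural cells (mostly Acta2), with those of skin, fibro-adipogenic and Schwann cells in the results. The totals of 28396780 to 38950514 counts per library set the precision, which with 2 libraries per group rests on the spread shared across groups.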

Additional observations from a re-analysis of the deposited data

Results flagged for a closer look

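The change from day 0 to day 7 differed between the genotypes, by the interaction term of edgeR, for 2 of the 7 genes other than Crabp1. Of the 41 tested genes of the wider list, 7 were called higher and 6 lower. The 5 of them given here were chosen by their adjusted p. Over all genes 12.8% were called higher and 12% lower, so that 2 of 7 lies near the background, as do the counts of the wider list. Knockout minus wild type, on the log2 scale, the difference was 1.56 for Rarb (adjusted p = 0.0129) and 0.88 for Rarg (adjusted p = 0.00442). It was 1.44 for Fabp5, 0.79 for Rdh5, 1.34 for Stra6, -1.11 for Ncoa2 and 0.70 for Rdh10, each with an edgeR adjusted p of at most 0.00472. With limma on log2(TPM + 1) without a filter that of Rdh10 was not called (0.54, adjusted p = 0.0566). Rarb shares 34.1% of its exonic bases with Top2b. For Rdh5, Fabp5 and Rarg the genotypes were farther apart at day 0 than at day 7. Each was lower in the knockout at day 0, where the keratinocyte sum was lower too. For Ncoa2 they were also farther apart at day 0, with the knockout higher. The part of the keratinocyte markers in these values was not tested. Crabp1 had a difference of 5.55, with all libraries of wild type lower and all of the knockout higher at day 7 than at day 0, and this difference was not tested, since it chose the gene. No group had more than 2 libraries, so single libraries were not examined as outliers.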

How the results depend on the processing

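With 2 libraries per group, calls moved with the setting, some far from the threshold among them, and no called difference of the 7 genes, or of the 18 other genes named with a test between days 0 and 7, reversed under any alternative run. The number of genes called among the 53 other than Crabp1 was 9 between genotypes at day 7, and it was 3 in the fit of all 12 libraries and 4 with limma on log2(TPM + 1) without a filter. The calls over all genes moved too, from 1169 of 15672 to 280 of 15890 and 434 of 21143. For the interaction it was 15, and 7 with that limma fit (3887 of 15672 and 2298 of 21143 genes). At day 21 by label it was 0 with edgeR and 2 with DESeq2 (2 and 475 of 15890 genes), and against day 0 in the knockout it was 13, and 20 on the batch-corrected values (4930 of 15890 and 5827 of 21782 genes). Leaving out each library gave 12 to 17 calls at day 0, 6 to 14 at day 7 (fewest without replicate 2 of wild type at day 7, most without replicate 2 of the knockout, where 1792 of 16318 genes were called), 24 to 30 for wild type and 25 to 32 for the knockout between days 0 and 7, 11 to 19 for the interaction, and by label 0 to 2 at day 21 (2 without replicate 1 of wild type at day 21), 11 to 18 for wild type and 5 to 18 for the knockout between days 0 and 21 (5 without replicate 1 and 6 without replicate 2 of the knockout at day 0). Over all genes tested, leaving out each library gave, in the same order, 21.6% to 42.6%, 2.50% to 10.98%, 40.6% to 56.4%, 42.1% to 51.7%, 13.4% to 27.1%, 0% to 5.24%, 19.3% to 35.9% and 16.2% to 34.0% called. With the replicate number as a block the counts were 16 at day 0, 8 at day 7, 27 for wild type, 27 for the knockout, 15 for the interaction, 0 at day 21, 16 for wild type and 14 for the knockout at day 21 against day 0. Without a block they had 8 and 8 called each way at day 0, 8 and 1 at day 7, 5 and 21 for wild type, 9 and 20 for the knockout, and 9 and 6 for the interaction, higher first. Shares over all genes under the block are not reported here, so these counts have no background beside them. Under the block the Crabp2 call at day 7 was lost (adjusted p = 0.0610) and Aldh1a1 was called lower in the knockout at day 21 against day 0 (adjusted p = 0.0271), and no other call of the 7 genes changed. The cause of these shifts was not tested.

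The log2 difference in Crabp1 changed with the scale. At day 0 it was -3.22 on log2(TPM + 1) with or without a filter and -2.79 on the batch-corrected values. At day 7 it was 2.00 and 1.76. Between days in wild type it was -3.54, with -3.66 on log2(TPM + 0.1) and -3.25 on the batch-corrected values, and in the knockout 1.29 on the batch-corrected values but 1.68 and 1.75 on the TPM scales, above the 1.60 reported. The difference of the changes was 5.22, 5.41 and 4.55 in that order. At day 21 against day 0 in the knockout by label it was 0.75 on the batch-corrected values. Leaving out each library gave -3.48 to -3.29 at day 0, 2.05 to 2.30 at day 7, -4.02 to -3.87 in wild type, 1.48 to 1.74 in the knockout, 5.43 to 5.69 for the difference, and by label -0.31 to 0.40 at day 21, -2.67 to -1.95 in wild type and 0.84 to 1.31 in the knockout. Low counts limit Aldh1a2, with 29 to 191 estimated counts per library, and Rarb, with 94 to 566.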

Other observations

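Ordered by mean level at day 0 in wild type, the 8 genes ran from Crabp1 through Aldh1a1, Crabp2, Rarg, Rara, Aldh1a3 and Rarb to Aldh1a2, and the libraries of Aldh1a3 and Rarb overlapped. In the knockout at day 0 Crabp1 lay below Aldh1a1, Crabp2, Rara and Rarg, and above Aldh1a3, Rarb and Aldh1a2. The retinoid genes not described above include Rarres1, a gene known to respond to retinoic acid, which stood at 13.2 and 12.6 TPM in wild type and at 3.10 and 2.02 TPM in the knockout at day 0 (edgeR log2 fold change -2.40, SE 0.497, adjusted p = 0.00616). At day 7 it stood at 0.818 and 2.84 TPM in wild type and at 1.17 and 1.58 TPM in the knockout, which overlapped. Dhrs9, a dehydrogenase of retinol, had 133 and 93 estimated counts in wild type and 12 and 17 in the knockout at day 0 (edgeR log2 fold change -2.75, SE 0.644, adjusted p = 0.00974). The Rarres1 call was lost without replicate 2 of the knockout at day 0 (edgeR adjusted p = 0.0577), and the Dhrs9 call without replicate 1 of wild type (0.0714) or replicate 1 of the knockout (0.0737) at day 0. Both were named after their values were seen, and at day 0 the keratinocyte sum was lower in the knockout as well.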
